A study of Rattus norvegicus with 6 samples.

Results

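AP-1 is a family of dimeric transcription factors built from FOS, JUN, ATF and MAF proteins, and 10 of its subunit genes were read in rat nucleus pulposus cells with and without serum. The genes are the FOS family (Fos, Fosb, Fosl1 and Fosl2), the JUN family (Jun, Junb and Jund), Atf3, and the small MAF genes Maff and Mafk. They were chosen by gene symbol, and each symbol stood on 1 row of all 6 deposited tables, which hold 17093 genes. All 10 passed the filter on low values, which asked for 1 FPKM or more in 3 or more of the 6 libraries and retained 11493 genes. The series is an RNA sequencing study of primary cells from the intervertebral disc of male Rattus norvegicus, used at passages 3 to 6. The serum-starved group was held for 48 h in DMEM-F12 without fetal bovine serum, and the control group in the same medium with 10% serum, with 3 libraries in each. No strain, age or genotype is stated in the sources used here, and nothing in the labels tells whether a group's 3 libraries are from different animals or dishes, so the p-values here reflect sample-to-sample spread that may be technical.

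FOS proteins cannot pair with one another and bind DNA only as partners of JUN proteins, whereas JUN proteins can also pair among themselves. All share a basic region that reads DNA and a leucine zipper that holds the dimer, and the classical site is the TRE, TGACTCA. Fos, Fosb, Jun and Junb are immediate early genes, switched on within minutes by growth factors in serum through ERK, JNK and p38 kinases, while Jund is transcribed in resting cells too. Fosl1 and Fosl2 encode FRA-1 and FRA-2, which lack the strong activation domain of FOS, and the small MAF proteins have no activation domain and pair with CNC factors such as NRF2.

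Promoter letters are shown first because some members moved together and their close relatives did not. The RefSeq promoter table (GRCr8) held 7 of the 10 members, without Fos, Jun and Atf3, and the 250 bases before the start were used. Shown are 3 genes that fell (Fosl1, Junb, Maff), 1 that did not pass the test (Jund) and 1 that rose (Fosl2). Capitals mark the TRE (TGACTCA), the CRE (TGACGTCA), its core TGACG (read as CGTCA on the other strand), the CArG box, the TATA box (TATAAA) and the E-box (CACGTG), each searched on both strands. The sequences run 5′ to 3′ on the gene's strand, and the build behind the expression values is not settled.
Fosl1 (chr1:212183635-212183884, plus strand): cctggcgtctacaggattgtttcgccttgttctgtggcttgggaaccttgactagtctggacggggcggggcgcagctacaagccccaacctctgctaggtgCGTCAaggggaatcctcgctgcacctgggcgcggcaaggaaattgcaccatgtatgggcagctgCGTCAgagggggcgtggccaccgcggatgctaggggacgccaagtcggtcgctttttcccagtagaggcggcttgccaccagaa
Junb (chr19:40080876-40081125, plus strand): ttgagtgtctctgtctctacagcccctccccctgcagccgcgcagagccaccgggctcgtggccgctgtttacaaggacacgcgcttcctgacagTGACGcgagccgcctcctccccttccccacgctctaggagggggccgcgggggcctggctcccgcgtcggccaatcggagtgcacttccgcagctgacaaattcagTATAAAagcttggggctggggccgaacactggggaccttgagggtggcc
Maff (chr7:112792537-112792786, plus strand): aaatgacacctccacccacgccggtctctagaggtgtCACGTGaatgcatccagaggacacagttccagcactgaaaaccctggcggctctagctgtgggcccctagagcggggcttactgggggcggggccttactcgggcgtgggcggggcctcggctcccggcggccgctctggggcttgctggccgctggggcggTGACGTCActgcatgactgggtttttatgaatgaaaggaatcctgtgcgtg
Jund (chr16:18769772-18770021, minus strand): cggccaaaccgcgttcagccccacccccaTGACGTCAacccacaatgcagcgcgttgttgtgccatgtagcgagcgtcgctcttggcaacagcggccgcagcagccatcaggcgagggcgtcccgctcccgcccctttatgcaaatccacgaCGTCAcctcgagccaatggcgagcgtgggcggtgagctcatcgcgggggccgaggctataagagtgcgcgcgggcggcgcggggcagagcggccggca
Fosl2 (chr6:30039270-30039519, minus strand): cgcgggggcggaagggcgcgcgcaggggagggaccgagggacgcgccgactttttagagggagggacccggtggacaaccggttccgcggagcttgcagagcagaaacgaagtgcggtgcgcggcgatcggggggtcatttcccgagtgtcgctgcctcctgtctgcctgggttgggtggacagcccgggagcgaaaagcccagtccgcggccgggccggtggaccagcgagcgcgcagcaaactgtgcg

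The full CRE stood in Jund, 221 to 214 bases before the start, and in Maff, 51 to 44 bases before it. Among all 33469 windows of this length, 1.59% held a CRE. The core TGACG stood in 5 of the 7 members (Fosl1, Junb, Jund, Maff and Mafk) against 18.2% of all windows, and each full CRE contains the core on both strands. Those 5 windows had a GC content from 62% (Fosl1) to 68.4% (Jund), above the median of 51.2% over all windows. The share over all windows was not matched for GC content. None of the 7 windows held a TRE or a CArG box, letters that 4.05% and 1.5% of all windows hold. Fos, Jun and Atf3 had no window and were not searched. Junb had a TATA box 49 to 44 bases before its start, in letters that 12.9% of windows hold. The Fosl2 window had none of the capitalised motifs and a GC content of 70.4%, against a median of 51.2% over all windows. A match is a description of letters, not a bound site, and genes that fell (Maff) and that did not pass (Jund) both carried the CRE.

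In serum-starved cells 5 members fell (Fosl1, Fos, Jun, Junb and Maff), 1 rose (Fosl2), and 4 did not pass the test (Fosb, Jund, Atf3 and Mafk). Values are the deposited ones, treated as FPKM, which corrects fragment numbers for transcript length and for the size of the library. Differences of mean log2(value + 1), serum-starved less control, are given as log2 fold changes with the standard error from limma, a linear model that pools the spread over all tested genes. A gene was called where its p, adjusted by Benjamini-Hochberg over all 11493 tested genes, did not exceed 0.05. Such calls were common: 61.1% of tested genes were called, 31.7% higher and 29.4% lower. The 6 called of 10 members are therefore close to that share, and the sizes tell more than the count. The 2 groups did not overlap for 6 of the 10 members either, against 68.2% of tested genes. The median absolute log2 fold change was 0.33 over all tested genes, and the 6 called members ranked within the largest 0.461% (Fosl1) to 6.2% (Fosl2) of absolute changes. The 4 that did not pass ranked from 65.2% (Atf3) to 83.6% (Fosb), counted from the largest change. The median log2 fold change was -0.83 over the 10 members and 0.03 over all tested genes. The members' median fell in the gap between Maff (-1.45) and Mafk (-0.21), so it describes no single member.

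**Figure D1:**
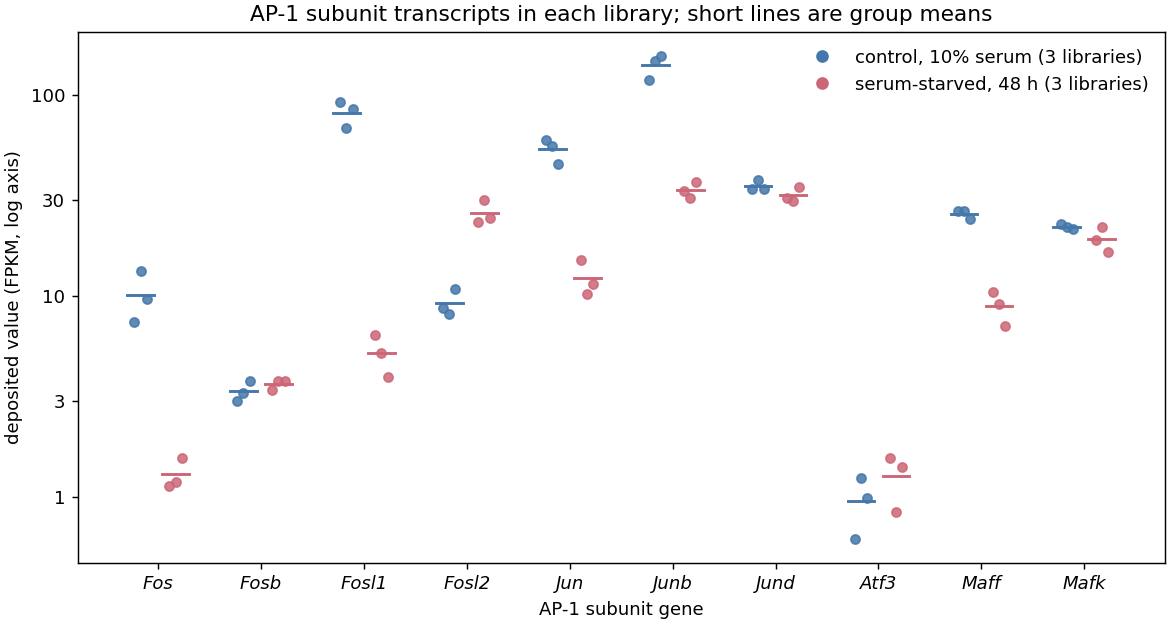
Deposited value (FPKM, log axis) of each AP-1 subunit gene in the 3 control and 3 serum-starved libraries, with short lines at the group means. The groups of Fos, Fosl1, Fosl2, Jun, Junb and Maff do not overlap, and Fosl2 is the gene among them that is higher in serum-starved cells.

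Among the FOS genes, Fosl1 (gene ID 25445) had the largest change. Its value was 92.5, 68.8 and 85.4 in control replicates 1, 2 and 3 and 6.44, 5.21 and 3.97 in serum-starved replicates 1, 2 and 3. Every serum-starved library lay far below every control library. The means were 82.2 ± 12.2 and 5.21 ± 1.24 (SD, n = 3 each), 15.8-fold lower, and the log2 fold change was -3.75 ± 0.16 (SE; limma, Benjamini-Hochberg adjusted p = 5.209e-07). In control cells Fosl1 stood in the top 6.14% of the 17093 genes by mean value, and in serum-starved cells in the top 49.1%.

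Fosl2 (gene ID 25446), the closest relative of Fosl1, moved the other way. It was 8.78, 8.11 and 10.8 in the controls and 23.5, 30.1 and 24.6 in the serum-starved libraries. All 3 serum-starved values were above all 3 control values. The mean rose 2.82-fold, from 9.25 ± 1.43 to 26.1 ± 3.53 (SD, n = 3 each), and the log2 fold change was 1.4 ± 0.12 (SE; limma, Benjamini-Hochberg adjusted p = 3.069e-05). Its place moved from the top 37.9% to the top 17.5% of genes.

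Fos (gene ID 314322), the founding member of the family, stood in the top 36.2% of genes in control cells and in the top 64% in serum-starved cells. Control values were 7.46, 13.3 and 9.69, and serum-starved values were 1.13, 1.19 and 1.57. The groups did not overlap, and control replicate 2 was the highest. The mean fell from 10.1 ± 2.94 to 1.3 ± 0.239 (SD, n = 3 each), 7.83-fold lower, and the log2 fold change was -2.25 ± 0.18 (SE; limma, Benjamini-Hochberg adjusted p = 1.794e-05). With values this near the pseudocount the log2 scale understates the change: at a pseudocount of 0.1 it was -2.85.

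Fosb (gene ID 100360880), an activity-induced relative of Fos, did not pass the test. It was 2.99, 3.28 and 3.8 in the controls and 3.42, 3.78 and 3.78 in serum-starved cells. The groups overlapped, with the highest value of all in control replicate 3. The log2 fold change was 0.1, with a 95% confidence interval from -0.12 to 0.32 (limma, Benjamini-Hochberg adjusted p = 0.396). A long non-coding RNA gene overlaps Fosb in the GRCr8 annotation, and the sources used here do not tell if counting used the strand, so the Fosb value is uncertain.

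Of the JUN genes, Jun and Junb fell by similar amounts and Jund did not pass. Junb (gene ID 24517) had the highest mean of all members in both groups. It was 119, 149 and 157 in the controls and 33.4, 30.9 and 36.9 in serum-starved cells. The serum-starved values lay close together and well below the lowest control. The mean fell from 142 ± 19.6 to 33.7 ± 3 (SD, n = 3 each), 4.2-fold lower, and the log2 fold change was -2.03 ± 0.11 (SE; limma, Benjamini-Hochberg adjusted p = 2.125e-06).

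Jun (gene ID 24516), the partner that pairs with itself as well as with FOS proteins, was 59.9, 56.2 and 45.5 in the controls. In serum-starved cells it was 15.1, 10.3 and 11.5. The lowest control was above every serum-starved library. The mean fell from 53.9 ± 7.48 to 12.3 ± 2.52 (SD, n = 3 each), 4.38-fold lower, and the log2 fold change was -2.05 ± 0.15 (SE; limma, Benjamini-Hochberg adjusted p = 8.994e-06).

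Jund (gene ID 24518) encodes the JUN protein known to be present in resting cells. It was 34, 38 and 34.2 in the controls and 31, 29.8 and 34.9 in serum-starved cells. The groups overlapped, since serum-starved replicate 3 was above controls 1 and 3. The log2 fold change was -0.15, with a 95% confidence interval from -0.33 to 0.04 (limma, Benjamini-Hochberg adjusted p = 0.139). Its sign depended on the scaling: with every library set to the same sum it was 0.04 (adjusted p = 0.68).

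**Figure D2:**
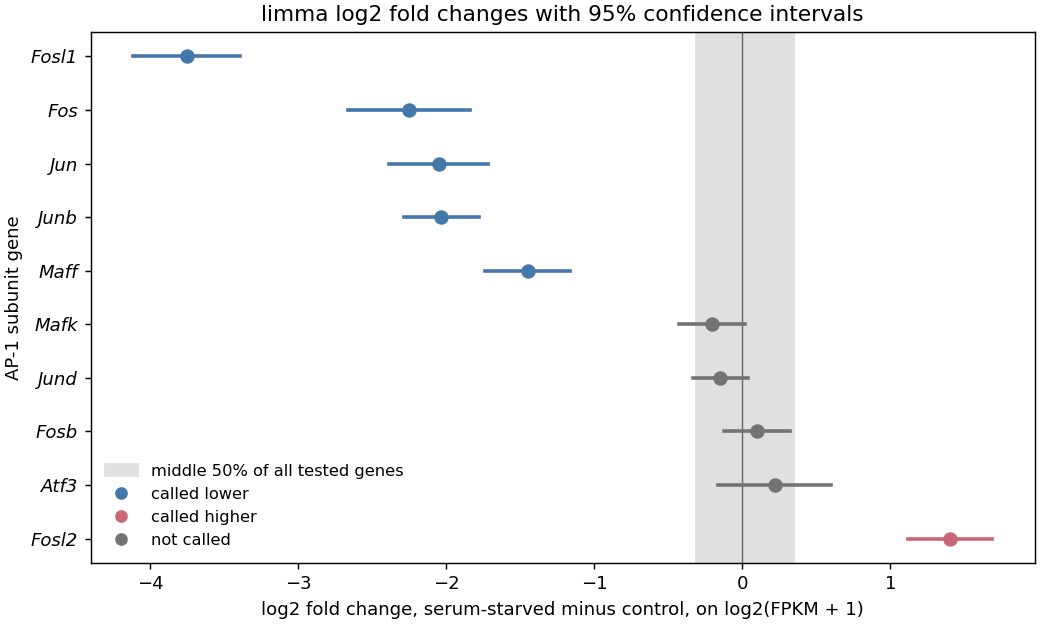
Log2 fold change of each AP-1 subunit gene (points) with its 95% confidence interval from limma (lines), serum-starved minus control. The grey band holds the middle 50% of all tested genes, from -0.32 to 0.35. Fosl1, at -3.75, lies farthest from the band, and the points of Mafk, Jund, Fosb and Atf3 lie inside it.

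The remaining members are a stress-induced factor and the small MAF genes. Maff (gene ID 366960) was 26.7, 26.6 and 24.2 in the controls and 10.5, 9.14 and 7.07 in serum-starved cells. The groups did not overlap. The mean fell from 25.8 ± 1.42 to 8.92 ± 1.75 (SD, n = 3 each), 2.9-fold lower, and the log2 fold change was -1.45 ± 0.12 (SE; limma, Benjamini-Hochberg adjusted p = 2.749e-05).

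Mafk (gene ID 246760) was 22.9, 22.1 and 21.6 in the controls and 19, 22 and 16.6 in serum-starved cells. Serum-starved replicate 2 lay within the control range and the other 2 lay below it. The log2 fold change was -0.21, with a 95% confidence interval from -0.43 to 0.02 (limma, Benjamini-Hochberg adjusted p = 0.0978). Leaving out serum-starved replicate 2 gave -0.3 (adjusted p = 0.019), and with library weights -0.27 (adjusted p = 0.0285), so the call for Mafk depends on that library and on the weighting. A long non-coding RNA gene overlaps Mafk in GRCr8.

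Atf3 (gene ID 25389), which many cell stresses induce, was near the floor. It was 0.62, 1.24 and 0.99 in the controls and 1.56, 0.84 and 1.41 in serum-starved cells. The groups overlapped, and the log2 fold change of 0.22 had a 95% confidence interval from -0.16 to 0.6 (limma, Benjamini-Hochberg adjusted p = 0.284). In GRCr8 the protein-coding gene Garin4 overlaps Atf3.

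Read as FPKM, which corrects for transcript length, the values were also compared between genes. The unit and the build behind them are not settled, so the orders, sums and shares across genes rest on that reading. On it, the order of levels changed with serum. In control cells the order by mean FPKM was Junb, Fosl1, Jun, Jund, Maff, Mafk, Fos, Fosl2, Fosb and Atf3, and the ranges of neighbours overlapped for Fos and Fosl2 and for no other pair. In serum-starved cells it was Junb, Jund, Fosl2, Mafk, Jun, Maff, Fosl1, Fosb, Fos and Atf3. There the ranges of Junb and Jund, of Jund and Fosl2, of Jun and Maff, and of Fos and Atf3 overlapped. Fosl1 thus went from the second place to the seventh, and Fosl2 from the eighth to the third.

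Summing the 4 FOS genes in each library gave 112, 93.4 and 110 FPKM in the controls and 34.5, 40.3 and 33.9 in serum-starved cells. The mean sum was 105 ± 10.03 and 36.2 ± 3.52 (SD, n = 3 each), 2.9-fold lower, and the groups did not overlap. The 3 JUN genes summed to 213, 243 and 236 in the controls and to 79.5, 71 and 83.3 in serum-starved cells. Their mean sum was 231 ± 15.6 and 77.9 ± 6.29 (SD, n = 3 each), 2.97-fold lower, again without overlap. The ratio of the FOS to the JUN sum ranged from 0.384 to 0.523 in the controls and from 0.407 to 0.567 in serum-starved libraries. Those ranges overlapped (two-sided exact permutation p = 0.9, n = 3 each). An exact permutation test with 3 libraries against 3 cannot go below 0.1, the value reached by each of the other 9 sums and shares described here (Benjamini-Hochberg adjusted 0.111 over 10 quantities).

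The makeup of the FOS sum was exchanged between its relatives. Fosl1 made up 82.8%, 73.6% and 77.8% of it in the controls and 18.7%, 12.9% and 11.7% in serum-starved libraries. Fosl2 made up 7.86%, 8.68% and 9.89% in the controls and 68.1%, 74.7% and 72.5% in serum-starved libraries. Fosl1 was thus the most abundant FOS transcript in all 3 controls and Fosl2 in all 3 serum-starved libraries. The Fosl1 to Fosl2 ratio was 10.5, 8.48 and 7.87 in the controls and 0.274, 0.173 and 0.162 in serum-starved cells. The share of Fos went from 9.91% ± 3.89 to 3.62% ± 0.891 and that of Fosb from 3.22% ± 0.469 to 10.2% ± 0.908 (SD, n = 3 each). Control replicate 2 had the highest Fos share, and without it the difference in the Fos share was -4.13 percentage points in place of -6.29. The FOS sum without Fosl1 was higher in serum-starved cells, with a log2 ratio of 0.45 in place of -1.54 for the full sum.

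**Figure D3:**
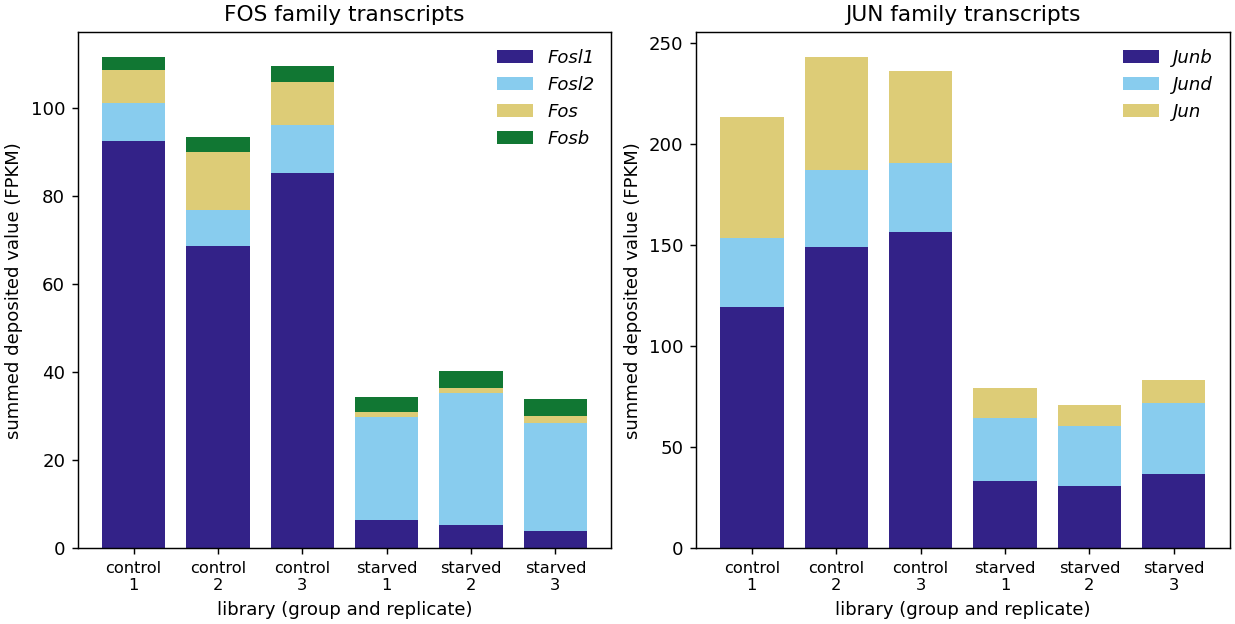
Deposited values (FPKM) stacked by gene in each library, with FOS genes on the left and JUN genes on the right. Both sums are lower in all 3 serum-starved libraries, and the Fosl1 block that fills most of the control FOS bars is replaced by a smaller Fosl2 block.

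The JUN sum shifted from Junb towards Jund. Jund made up 15.9%, 15.6% and 14.5% of it in the controls and 39%, 42% and 41.9% in serum-starved libraries, at nearly the same level in FPKM. Junb went from 61.2% ± 5.14 to 43.3% ± 1.17 and Jun from 23.5% ± 4.42 to 15.8% ± 2.83 (SD, n = 3 each). The Junb to Jund ratio was 3.51, 3.92 and 4.58 in the controls and 1.08, 1.04 and 1.06 in serum-starved cells. The Jun to Junb ratio, by contrast, overlapped between the groups, at 0.501, 0.377 and 0.291 against 0.453, 0.332 and 0.312 (two-sided exact permutation p = 0.8, n = 3 each, 0.8 after Benjamini-Hochberg adjustment over 9 pair ratios). Within the FOS family the Fos to Fosl1 ratio overlapped too (two-sided exact permutation p = 0.2, adjusted 0.225, n = 3 each), and the other 7 pair ratios reached the smallest p of 0.1 (adjusted 0.129).

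Around the members, 7 of 14 tested MAP kinase pathway genes were called, 3 higher and 4 lower, which is 50% against 61.1% of all tested genes, so the count says nothing of this list. The kinases themselves changed little: Mapk8 (JNK1) went from 4.7 ± 0.132 to 5.81 ± 0.688 and Mapk9 (JNK2) from 17.1 ± 0.843 to 14.7 ± 0.605 (SD, n = 3 each), while Mapk3 and Mapk14 did not pass, although Mapk3 did in 3 of the alternative fits. The calls for Mapk8 and Mapk9 (limma, Benjamini-Hochberg adjusted p = 0.0435 and 0.0319) were lost in 9 and 8 of the 15 alternative fits, among them the one with a replicate block, a term for the replicate number. The largest changes were in kinases one step above. Map2k3, which activates p38, fell from 62.9 ± 5.84 to 28.3 ± 2.07, and the log2 fold change was -1.12 ± 0.09 (SE; limma, Benjamini-Hochberg adjusted p = 1.341e-05). Map2k1, which activates ERK, fell from 69.1 ± 2.67 to 36.3 ± 0.625, and the log2 fold change was -0.91 ± 0.06 (adjusted p = 5.568e-06). Rps6ka5, a nuclear kinase that phosphorylates CREB and histone H3, rose from 6.22 ± 0.243 to 9.17 ± 1.73, and its relative Rps6ka4 fell from 25.8 ± 1.93 to 19.4 ± 0.0681.

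SRF, ternary complex and CREB factors were called in 6 of 9 cases, 4 higher and 2 lower, a share of 66.7% that is near the 61.1% of all tested genes. Elk3, an ETS factor of the ternary complex, fell from 107 ± 7.42 to 53.1 ± 3.39 (log2 fold change -0.99 ± 0.08, SE). Elk1, its best-known relative and a substrate of ERK, rose from 11.3 ± 0.41 to 16.2 ± 0.957 (0.48 ± 0.07). Srf, the factor that binds the CArG box, rose from 13.7 ± 0.853 to 19.4 ± 4.57, and Creb1 from 6.67 ± 0.813 to 9.08 ± 0.496. By limma the highest Benjamini-Hochberg adjusted p of these 4 calls was 0.0246 (Srf). With serum-starved replicate 3 left out the adjusted p of Srf was 0.0523, with control replicate 1 left out 0.0735, and with no filter 0.0525, so the call was lost in these 3 of the 15 alternative fits.

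Of 8 tested relatives in the bZIP class, 2 were higher (Atf2 and Atf7) and 2 lower, among them Mafg, which is 50% called against 61.1% of all tested genes. Mafg, the small MAF gene next to Maff and Mafk in kind, fell from 18.2 ± 0.34 to 14.7 ± 0.882 (SD, n = 3 each). Atf2, which pairs with JUN at the CRE, rose from 17.2 ± 2.02 to 20.7 ± 0.546, and Atf7 from 14.2 ± 0.874 to 17.1 ± 1.22. Both calls were lost on leaving out serum-starved replicate 2, serum-starved replicate 3 or control replicate 2 (limma, Benjamini-Hochberg adjusted p = 0.0554 to 0.0925), and that of Atf2 also on leaving out serum-starved replicate 1 (0.0593) or control replicate 3 (0.073) and with median-ratio scaling (0.0522). None of the 3 tested CNC and BACH partners of small MAF passed in limma, nor did any at an unadjusted p under 0.05: Nfe2l2 (NRF2) had a mean of 77.02 ± 6.28 with serum and 76.9 ± 8.33 without, and its log2 fold change was -0.0038.

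Genes that act on AP-1 protein or mRNA were called in 6 of 7 cases, 3 each way, against 61.1% of all tested genes. Zfp36, an immediate early gene itself that encodes tristetraprolin, which speeds decay of AU-rich mRNAs such as that of Fos, fell from 34.2 ± 6 to 14.9 ± 0.74 (log2 fold change -1.13 ± 0.12, SE). Its relative Zfp36l1 rose from 101 ± 29.5 to 160 ± 16.7 (0.69 ± 0.18). Cops5, whose product binds JUN, fell from 45.9 ± 3.61 to 32.6 ± 0.699. The ubiquitin ligase genes Cop1 and Itch, whose products target JUN for destruction, rose 1.31-fold and 1.32-fold. By limma the highest Benjamini-Hochberg adjusted p of these 6 calls was 0.0104 (Zfp36l1).

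Textbook AP-1 target genes were mostly lower: 13 of 17 tested fell, 1 rose and 3 did not pass, where 29.4% of all tested genes were lower and 31.7% higher. The median log2 fold change was -1.55, against 0.03 over all tested genes. Among the 13, Timp1 changed little (log2 fold change -0.3; limma, Benjamini-Hochberg adjusted p = 0.039), and its call was lost in 7 of the 15 alternative fits. Plau, the urokinase gene, fell from 78.5 ± 11.1 to 8.28 ± 2.65, and the log2 fold change was -3.13 ± 0.2 (SE). Ccnd1, which encodes cyclin D1, fell from 378 ± 45.6 to 45.9 ± 11.3 (-3.04 ± 0.17), Hmga1, a chromatin protein gene, from 693 ± 29 to 85.05 ± 12.7 (-3.02 ± 0.1), and Ezr (ezrin) from 92.7 ± 15.4 to 15.8 ± 0.96 (-2.47 ± 0.12). The highest limma Benjamini-Hochberg adjusted p among these 4 was 4.922e-06 (Plau). The 3 matrix metalloproteinase genes that were tested did not pass: Mmp3 had a mean of 1748 ± 397 with serum and 2656 ± 1004 without, Mmp13 84.5 ± 22.8 and 142 ± 56.9, and Mmp10 287 ± 68.2 and 305 ± 113 (SD, n = 3 each). The limma Benjamini-Hochberg adjusted p was 0.147, 0.0618 and 0.917 in that order, and all 3 were lowest within their group in serum-starved replicate 2 and in control replicate 2. Mmp3 and Mmp13 were called higher without serum-starved replicate 2 (adjusted p = 0.00488 and 0.0157) and with the replicate block (0.0143 and 0.0039), and also with library weights and after quantile normalization, so these calls depend on that library and on the fit. Mmp1 and Mmp9 were under 1 FPKM and were not tested. Mt2A, a metallothionein gene, was the 1 that rose, from 328 ± 140 to 679 ± 190. Many of these targets answer to other factors as well, and the part of AP-1 in their change was not tested.

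**Figure D4:**
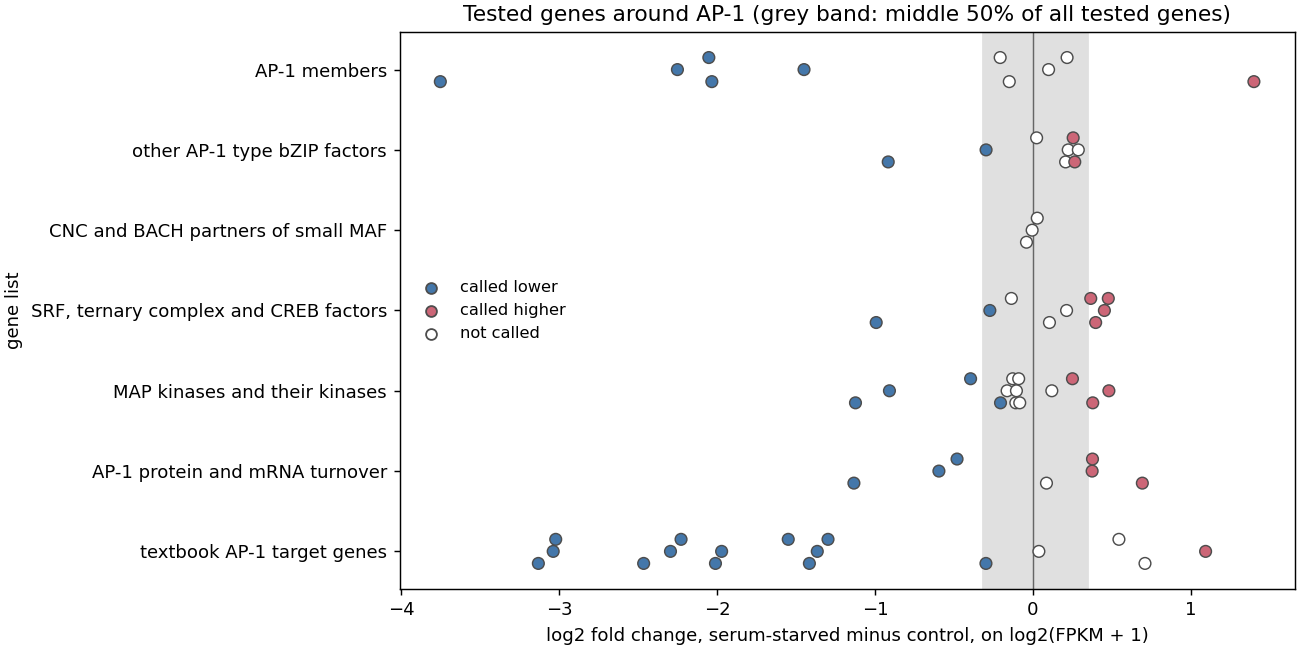
Log2 fold change (serum-starved minus control) of each tested gene, by list, with filled points for called genes and a grey band for the middle 50% of all tested genes. Of the AP-1 target genes 13 lie to the left as called lower, while the CNC and BACH partners cluster at 0.

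Over the 6 libraries, genes with a mean of at least 5 (8584 genes) were ranked by Pearson r to Fosl1, Fos and Jun on the log2(value + 1) scale, as a description. The closest to Fosl1 were Rpa2, Eif5a and Tuba1b (r between 0.9992 and 0.9994). For Fos they were Ncs1, Paqr8 and Umps (r between 0.9945 and 0.9976), and for Jun Psmd9, Kcnn4 and Psma7 (r = 0.9994 to 0.9996). Such values are common here, because the points fall into 2 groups: r was above 0.95 for 1522 genes with Fosl1, 896 with Fos and 1538 with Jun.

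Library sums ran from 522165 to 530095 FPKM in the control group and from 447788 to 473452 in the serum-starved group, and without counts the depth is unknown. Of the nucleus pulposus markers, Acan, the aggrecan gene, was 82.6, 103 and 47.2 in the controls and 3.27, 2.67 and 3.22 in serum-starved cells. Col2a1 was at most 0.06 in any library and Krt18 was listed at 0 in all 6, so these 2 defining markers of the labelled cell type are at or near 0. Of 14 nucleus pulposus symbols 11 were matched and 8 tested, and T and Krt19 were among those without a match. All 8 tested nucleus pulposus markers were called, 6 lower and 2 higher (Car3 and Pax1). Of all tested genes 61.1% were called, 31.7% higher and 29.4% lower, shares that stand beside each list count below too. Car3 rose from 1.03 ± 0.219 to 26.2 ± 0.852 (SD, n = 3 each). The nucleus pulposus list summed to between 269.6 and 313 with serum and to between 133 and 141 without. Slc2a1 was the largest part of that sum with serum, and fell from 141.9 ± 5.08 to 30.7 ± 3.1 (SD, n = 3 each). Sox9, at a low level, fell from 5.11 ± 0.668 to 1.27 ± 0.0723. The sum thus largely follows Slc2a1 and Acan and does not stand for each marker. Col1a1 was 1799 ± 213 with serum and 2697 ± 53.9 without. Of 8 tested fibroblast and annulus markers 5 rose, such as Dcn from 26.7 ± 15.4 to 239.8 ± 41.6, and 1 fell (Thy1, from 920.5 ± 56.8 to 297 ± 33.7; SD, n = 3 each), and the list's summed value was 2790 to 3171 in control and 3511 to 3667 in serum-starved libraries. Summed endothelial markers (3 of 6 matched: Pecam1, Tie1 and Vwf) were 0.57 to 1.18 and 0.51 to 0.75, and summed leukocyte markers (4 of 8 matched: Cd68, Csf1r, Cd14 and Lyz2) 23.5 to 29.9 and 10.7 to 14.3, most of it Cd14, with Csf1r at most 0.25. Of the 2 tested leukocyte markers Cd14 fell, from 24.8 ± 2.85 to 8.54 ± 1.86, and Cd68 rose, from 1.96 ± 0.467 to 3.38 ± 0.6. Lyz2 was listed at 0 in all 3 controls and had a mean of 0.143 in serum-starved cells. Muscle and glial markers summed to 164 to 175 in control and 134 to 145.5 in serum-starved cells, where Des was 125 ± 12.1 and then 12.9 ± 2.37, and S100b 32.1 ± 4.69 and then 114 ± 4.64 (SD, n = 3 each). Of 5 tested heat shock genes 1 (Dnajb1) fell, and limma called 0 higher, also at an unadjusted p under 0.05. The part of these shifts in the AP-1 changes was not tested, and in bulk RNA fewer cells of a type and less RNA per cell cannot be told apart.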

How the data were processed

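RNA was sequenced after ribosomal RNA was removed with captured probes, per the labels' protocols. The authors deposited 1 table per library with 1 value per gene, treated here as FPKM. The headers name no unit, and TPM over a wider gene set would differ by 1 factor per library. The submitters' processing notes name HISAT2, StringTie, bcl2fastq 2.0, limma and DESeq2, and as build mm10, a mouse genome, although 93.2% of the gene IDs matched rat genes in GRCr8 (all 10 members did). Strand use, and how reads matching several genes were divided, are not given in the sources used here, so overlapping genes are uncertain.

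Values were analysed as log2(value + 1) by limma 3.58.1 (R 4.3.3), trended on intensity, with a treatment term alone, for genes that reached 1 FPKM in 3 or more libraries. The test was checked on simulated data. Python 3.11.15, pandas 2.3.3, numpy 2.4.6 and matplotlib 3.10.9 were used for sums, shares and plots. Depth is unknown, so no counting interval is given. No pair of libraries shared more than 0.265% of its values of 5 FPKM or more. The labels do not say whether replicate numbers pair the libraries, and the main fit did not pair them.

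The members and gene lists were chosen with earlier results of these data known. All members are named, and in the other lists up to 4 called genes with the largest change and a group mean of 1 or more, with defining markers at 0, and the 3 genes most like Fos, Fosl1 and Jun. Named outside this rule, after their values were seen, were Mapk3, Mapk8, Mapk9, Mapk14, Nfe2l2, Cop1, Itch, Mt2A, Mmp1, Mmp3, Mmp9, Mmp10, Mmp13, Timp1, Col2a1, Col1a1, Pax1, Csf1r, Lyz2, Pecam1, Tie1 and Vwf, while a few markers and list genes under this rule are left unreported. Fits with another pseudocount, filter, scaling, weights, trend or replicate block, and without each library, were compared.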

Additional observations from a re-analysis of the deposited data

How the results depend on the processing

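All 6 called members kept their direction and call in each of 15 alternative fits (90 values, highest limma Benjamini-Hochberg adjusted p 0.000292). Leaving out 1 library at a time, the log2 fold change ranged from -3.89 to -3.6 for Fosl1, from -2.43 to -2.06 for Fos, from -2.2 to -1.94 for Jun, from -2.15 to -1.96 for Junb, from -1.57 to -1.31 for Maff and from 1.3 to 1.51 for Fosl2. Mafk was called with library weights (-0.266), and its values without 1 library ran from -0.304 to -0.113. With equal library sums, which moved the median of all tested genes from 0.03 to 0.22, Jund turned to 0.0394, Mapk14 to 0.0827, Mapk3 to 0.0293 and Nfe2l2 to 0.188, 5579 genes were called higher and 2410 lower (69.8% higher, against 51.8% in 3640 and 3384), the JUN log2 ratio was -1.38, 1 CNC or BACH partner, 5 bZIP relatives, 2 AP-1 targets and 2 heat shock genes were higher, and 1 bZIP relative and 1 SRF, ternary complex or CREB factor lower. After quantile normalization 3 targets and 2 heat shock genes were higher, the FOS to JUN log2 ratio was -0.00237 against 0.03, and Timp1, a called target, was 0.0275 against -0.3, while Nfe2l2 was 0.158. With library weights 3 targets were higher and 2 fibroblast markers lower. Median-ratio scaling left 1 bZIP relative higher and Mmp10 at -0.00502 against 0.04. With no filter 2 leukocyte markers were higher and 2 lower, and at a filter of 5, 0 leukocyte markers (limma, also 0 at an unadjusted p under 0.05) and 1 muscle or glial marker were higher and 3 nucleus pulposus markers lower, since fewer genes were tested. Without the most abundant member the log2 ratio was 0.449 for the FOS and -1.01 for the JUN sum.

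Without 1 library at a time, 0 to 2 bZIP relatives (limma, 2 or 3 at an unadjusted p under 0.05), 1 to 3 targets and 1 to 3 muscle or glial markers were higher, 1 to 2 fibroblast markers were lower, and the FOS to JUN log2 ratio lay between -0.11 (without serum-starved replicate 2) and 0.137, with -0.0863 without control replicate 2. With 1 library left out the log2 fold change of Mmp10 ran from -0.176 to 0.394 and that of Nfe2l2 from -0.0721 to 0.0824, neither of them called. The replicate block, which pairs libraries by number, gave 3508 genes higher and 3293 lower, 3 targets higher (Mmp3 and Mmp13 added), and changed no member's call. Same-numbered libraries' deviations had r of 0.037, -0.162 and 0.101, and not every library correlated best with its own number. With 3 libraries per group such values cannot tell whether the numbers mark pairs. The cause of these shifts was not tested.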
